A study of Drosophila melanogaster with 12 samples.

Results

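The new glue genes ng1, ng2 and ng3 and the ecdysone-induced genes Eig71Ea to Eig71Ef are 9 salivary gland genes of Drosophila melanogaster, and they were followed here across 4 groups of larvae. They were found by gene symbol in the annotation of the array. Of the 9 genes, 7 had a listed probe set, among 11982 genes with one in the whole series. These 7 genes had 8 probe sets, since ng1 and ng2 each had 1 of their own and also shared 1 that lists both. No probe set was listed for Eig71Eb or Eig71Ec, which were therefore not analysed here.

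Whole male larvae, wild type and of strain Canton-S, were profiled on 12 Affymetrix arrays, with 3 biological replicates in each group. The semi-defined medium, kept at 25 °C, contained sucrose at 0.15 M (control food) or 1 M (high sugar food). Wandering larvae had stopped eating and had been on their food since hatching. The larvae called mid-L3, of the middle of the last instar, grew up on control food and were moved for the 12 h before harvest to new control food or to high sugar food. No gene was altered in any group. The stages therefore differ in age and behaviour, and the diets differ in length of exposure between the stages.

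Larval salivary glands make a glue of Sgs proteins that fixes the animal to its substrate when it forms a puparium. The new glue genes lie together on the X chromosome near the glue gene Sgs4, are transcribed in the same glands during the last larval instar, and are named for this likeness. ng1 and ng2 are close copies of each other. The Eig71E genes form a cluster on chromosome arm 3L, in the salivary gland puff 71E that opens late in the response to the steroid hormone ecdysone. Most encode small secreted peptides, while Eig71Ee is known to be transcribed earlier than its neighbours, at the time of glue synthesis.

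Intensities are the deposited values on a linear scale. Their median per array was 62.2 to 65.0 in mid-L3 and 79.1 to 82.4 in wandering larvae. Markers of several tissues differed by stage. For the salivary gland, the summed intensity of 7 Sgs genes was 203 to 4234 per array in mid-L3 larvae and 59037 to 61750 in wandering larvae. From mid-L3 to wandering larvae the summed level of 4 body wall muscle genes (of 7 listed) went from 20617 to 21807 down to 2424 to 5056 per array. That of 3 fat body genes (of 6) went from 12655 to 21578 up to 28544 to 32189, and that of 7 testis genes from 680 to 957 up to 4496 to 6349. The part of these tissues in the stage values below was not tested. Transcripts of the 3 yolk protein genes, markers of adult females, had group means of 2.64 to 41.6. In RNA of whole animals, fewer or smaller gland cells cannot be told apart from less RNA per cell. Changes are log2 differences of intensity plus 12.7, after quantile normalization of the arrays. Their adjusted p values come from limma, with the 8387 genes that passed a filter on dim genes or, for probe sets outside that table, with 13138 probe sets fitted singly. The number of arrays limits the precision.

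**Figure D1:**
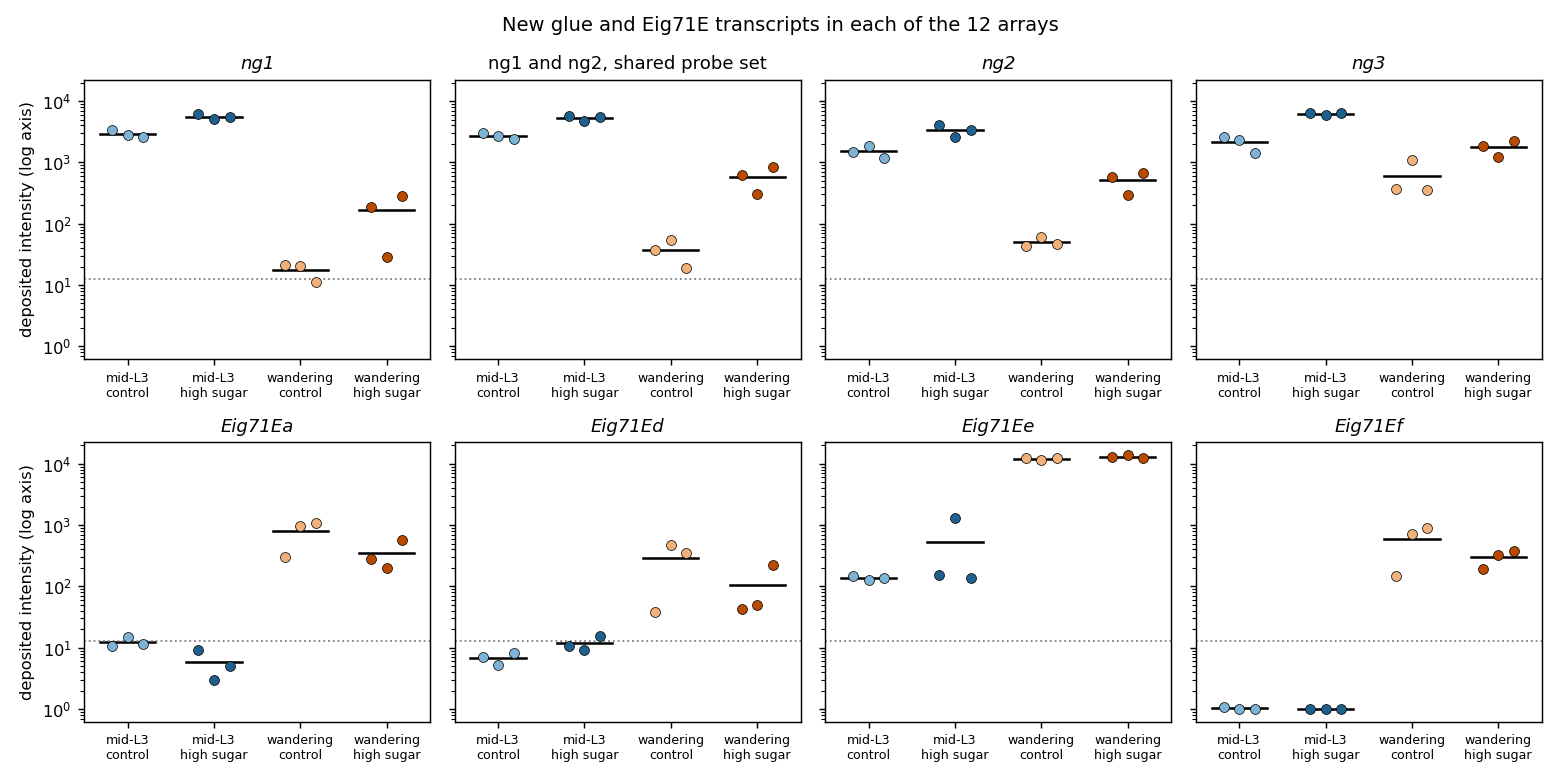
Deposited intensity (log axis) of the 8 probe sets in each of the 12 arrays by group. Points are arrays, black bars are group means, and the dotted line is the added constant of 12.7. The new glue probe sets lie highest in mid-L3 larvae and the Eig71E probe sets in wandering larvae.

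The first question was how the new glue transcripts changed between mid-L3 and wandering larvae. All 4 new glue probe sets were lower in wandering larvae on both foods, by log2 changes of -1.96 to -6.44 on control food and of -1.62 to -5.30 on high sugar food. At the same threshold 39.8% of the 8387 genes were lower on control food and 40.9% on high sugar food, and 38.0% and 38.8% of the 13138 probe sets, so a lower call was common between the stages. Groups that did not overlap, with the wandering arrays lower, were found in 41.6% of genes on either food. The mean of ng1 reached the level tested through its mid-L3 arrays, so the count of 4 is only a description.

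ng1 had intensities of 3347, 2753 and 2595 in mid-L3 larvae on control food and of 21.2, 20.6 and 11.2 in wandering larvae. The wandering values lay close to the added constant and far below every mid-L3 array. The ng1 change was -6.44 (SE 0.47, adjusted p = 4.2e-08) on control food. It was -5.07 with a constant 5 times larger and -7.13 with a constant of 1. On high sugar food ng1 went from 6233, 5035 and 5411 to 190, 29.1 and 282, a change of -5.30 (SE 0.47, adjusted p = 3.0e-07). The groups did not overlap here either.

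ng2, the close copy of ng1, had 1466, 1874 and 1193 in mid-L3 larvae on control food and 42.9, 60.9 and 46.6 in wandering larvae. Its wandering arrays differed by little and lay well below the mid-L3 arrays, with a change of -4.60 (SE 0.26, adjusted p = 4.1e-09). On high sugar food ng2 went from 4037, 2554 and 3366 to 578, 299 and 674, a change of -2.74 (SE 0.26, adjusted p = 6.2e-07). The probe set shared by ng1 and ng2 changed by -5.75 (SE 0.30, adjusted p = 1.7e-09) on control food and by -3.23 (SE 0.30, adjusted p = 4.3e-07) on high sugar food. Between near-identical genes, how much of each probe set's signal comes from the other copy was not tested.

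In wandering larvae ng3 kept 0.287 of its mid-L3 mean on control food and 0.285 on high sugar food, more than ng1 or ng2. It had 2588, 2344 and 1432 in mid-L3 larvae on control food and 370, 1097 and 358 in wandering larvae, where the second array stood out above the rest of its group. The change was -1.96 (SE 0.36, adjusted p = 2.3e-04). On high sugar food ng3 went from 6470, 5817 and 6393 to 1840, 1246 and 2239, a change of -1.62 (SE 0.36, adjusted p = 0.00107). No array of one stage overlapped with the other stage on the same food. Every new glue stage call held under each alternative that could be computed.

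The next question was how these genes differed between the foods. In wandering larvae, reared on their food since hatching, all 4 new glue probe sets were higher on high sugar food, where 3.57% of genes and 2.51% of singly fitted probe sets were called higher. ng2 went from 50.1 ± 9.52 to 517 ± 195 (SD, n = 3), and its arrays did not overlap between the diets, as in 11.8% of genes. The ng2 change was 2.94 (SE 0.26, adjusted p = 1.9e-05). The shared probe set had 37.0, 54.9 and 19.1 on control food and 616, 310 and 837 on high sugar food. It changed by 3.45 (SE 0.30, adjusted p = 1.4e-05), and both calls held under every alternative run. With the larger constant the changes were 2.21 for ng2 and 2.53 for the shared probe set, and with a constant of 1 they were 3.22 and 3.86.

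ng1 and ng3 were also higher in wandering larvae on high sugar food, with calls that depended on the fit. The ng1 change was 2.01 (SE 0.47, adjusted p = 0.0246). With control values near the added constant its size followed that choice, at 1.20 with a constant 5 times larger and 2.50 with a constant of 1. Its high sugar array 2, at 29.1, lay just above the highest control array, at 21.2, and the other 2 lay well above. Without that array the change was 2.79 (adjusted p = 3.2e-06). Leaving out wandering control array 1 ended the ng1 call (adjusted p = 0.0502), as did leaving out the third control array (0.0975) or array 1 (0.0943) or array 3 (0.0911) of those on high sugar. It was also lost with the 6 wandering arrays fitted alone (0.122), with a robust variance prior (0.0671) and without both control arrays numbered 1 (0.0729). Over all alternatives its adjusted p was 3.2e-06 to 0.125. ng3 went from 608 ± 423 to 1775 ± 499 (SD, n = 3), a change of 1.85 (SE 0.36, adjusted p = 0.00839). Its call was lost with the wandering arrays alone (0.0526). Its adjusted p ran from 1.4e-04 to 0.0925.

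Summed markers of some other tissues also differed between the diets. The summed intensity of the 4 midgut genes measured, of 7 listed, in wandering larvae was 20443 to 24202 per array on control and 24840 to 29905 on high sugar food. At mid-L3 the same sum was 23556 to 24685 and 33944 to 35694. The midgut genes did not all move alike. In wandering larvae their median went from 5103 up to 7895 on high sugar food, and the highest gene mean from 11456 down to 10384.5. At mid-L3 the lowest gene mean went from 1459 to 6103, and the highest was 11722 and 11711. Summed fat body markers at mid-L3, at 18355.5 to 21578 on control and 12655 to 18404.6 on high sugar food, overlapped. Summed testis markers at mid-L3 were 680 to 831 and 863 to 957, and those of body wall muscle, at 20923 to 21807 and 20617 to 21530, overlapped between the diets. The part of tissue makeup in the new glue values was not tested. Whether wandering larvae on both foods were equally far in development was not tested either.

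In mid-L3 larvae, after 12 h on high sugar food, 2 of the 4 new glue probe sets were called higher, where 7.52% of genes and 5.57% of singly fitted probe sets were. ng2 went from 1511 ± 343 to 3319 ± 743 (SD, n = 3), a change of 1.08 (SE 0.26, adjusted p = 0.0155). ng3 went from 2121 ± 610 to 6226 ± 357 (SD, n = 3), and rose by 1.51 (SE 0.36, adjusted p = 0.0135). The lowest high sugar array of each lay above the highest control array, as in 21.5% of genes. For ng2 the call ended when the third control array (adjusted p = 0.0723), sugar-fed array 1 (0.0683) or 3 (0.0529), or both control arrays numbered 1 (0.0559) were left out, and the adjusted p ran from 1.5e-04 to 0.0723. For ng3 it ended under 1 alternative, without the third control array (0.0658), and the adjusted p was as low as 5.6e-04 under others.

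The other 2 probe sets moved by a similar amount in mid-L3 larvae and did not pass. ng1 went from 2898 ± 396 to 5560 ± 613 (SD, n = 3), a value of 0.88 (SE 0.47, adjusted p = 0.253), and the shared probe set gave 0.94 (SE 0.30, adjusted p = 0.0646). Neither overlapped between the diets. The spread in this fit is shared with wandering larvae, where ng1 varied more. With the 6 mid-L3 arrays fitted alone, both passed (adjusted p = 5.1e-04 for ng1 and 3.9e-04 for the shared probe set), and without wandering high sugar array 2 they did as well (0.00393 and 0.00884). The shared probe set also passed without wandering control array 3 (0.0489), without wandering high sugar array 3 (0.0375) and with an added constant 5 times larger (0.0243). With array weights both passed (0.0139 and 0.00777). The ranges were 5.1e-04 to 0.431 for ng1 and 3.9e-04 to 0.174 for the shared probe set.

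Whether the diet effect differed between the stages was tested as the difference of the 2 effects. It was larger in wandering larvae for ng2, by 1.86 (SE 0.37, adjusted p = 0.00787), and for the shared probe set, by 2.52 (SE 0.42, adjusted p = 0.00313). With a constant 5 times larger these differences were 1.16 (adjusted p = 0.0483) and 1.61 (adjusted p = 0.0123). At this threshold 3.79% of genes and 2.81% of probe sets had a larger effect in wandering larvae. For ng1 the difference was 1.13 (SE 0.66, adjusted p = 0.351), and it passed without wandering high sugar array 2 (adjusted p = 6.1e-04) and with array weights (0.00386), in a range of 6.1e-04 to 0.7. For ng3 it was 0.34 (SE 0.51, adjusted p = 0.752). These comparisons share arrays with the stage comparisons above and are not independent of them.

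In order of level, the new glue probe sets were highest in the mid-L3 larvae given high sugar food, then in mid-L3 larvae on control food, wandering larvae on high sugar food and wandering larvae on control food. For ng1, ng2 and the shared probe set, neighbouring groups in that order did not overlap. The shared probe set lists both genes and is no separate case. Between the diets alone, high sugar arrays lay above all control arrays in 21.5% of genes at mid-L3 and 11.8% in wandering larvae. The order was read from these same values, and the share of all genes with the whole order, or with its middle step, was not computed. For ng3, the arrays of mid-L3 larvae on control food (1432 to 2588) and of wandering larvae on high sugar food (1246 to 2239) overlapped.

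**Figure D2:**
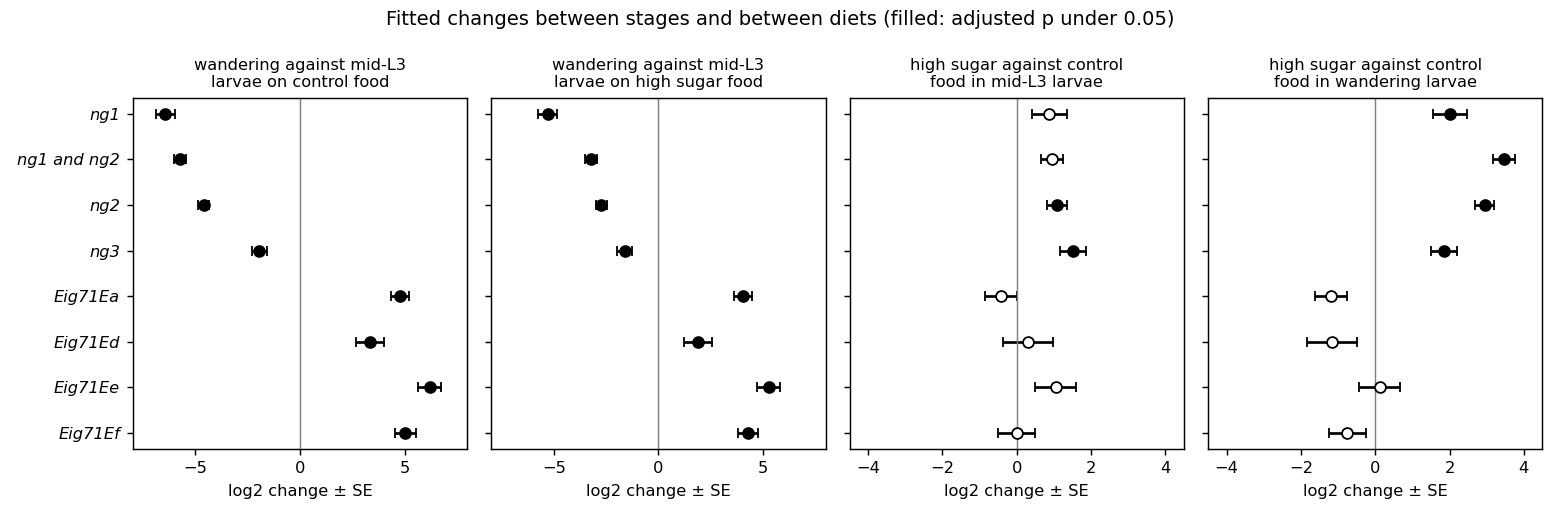
Fitted log2 change (points) with its SE (bars) for the 8 probe sets in the 4 comparisons of 2 groups. Filled points had an adjusted p under 0.05. All 4 new glue probe sets fell between the stages. On high sugar food 4 were called higher in wandering and 2 in mid-L3 larvae, while the Eig71E genes rose between the stages and had no diet call.

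The Eig71E transcripts ran the other way between the stages. All 4 probe sets were higher in wandering larvae on both foods, where 39.4% and 38.2% of genes and 36.8% and 35.8% of probe sets were called higher on control and high sugar food. Wandering arrays lay above all mid-L3 arrays in 41.4% and 39.0% of genes. Eig71Ed and Eig71Ef fell under the filter in the gene table and were tested with the singly fitted probe sets. Their mean, like that of Eig71Ea, reached the level tested through the wandering arrays, so the count is no evidence of its own.

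Eig71Ee, the early member of the cluster, had 150, 128 and 140 in mid-L3 larvae on control food and 12444, 11599 and 12508 in wandering larvae. The groups were tight and far apart, with a rise of 73.3-fold in intensity plus the constant (adjusted p = 2.8e-07). On high sugar food it went from 153, 1303 and 139 to 12810, 13828 and 12477, a change of 5.27 (SE 0.55, adjusted p = 1.4e-06). The wandering values stood at 73.3% to 87.4% of the highest intensity on any array. How far signal still follows transcript amount at that height was not tested.

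Eig71Ea, a late gene of the puff, had 10.6, 14.9 and 11.5 in mid-L3 larvae on control food and 300, 984 and 1082 in wandering larvae. The mid-L3 values lay about at the added constant. The change was 4.79 (SE 0.44, adjusted p = 3.7e-07), and on high sugar food it was 4.03 (SE 0.44, adjusted p = 2.1e-06), from 5.82 ± 3.21 to 351 ± 193 (SD, n = 3). With a constant 5 times larger these changes were 3.28 on control food and 2.34 on high sugar food.

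Eig71Ef was listed at 1.00 to 1.07 in the mid-L3 arrays, with 5 of 6 at exactly 1. In wandering larvae it had 148, 722 and 900 on control food and 190, 331 and 374 on high sugar food. Every wandering array lay above every mid-L3 array. The changes were 5.03 (SE 0.50, adjusted p = 8.7e-07) and 4.29 (SE 0.50, adjusted p = 4.4e-06). Against values at the floor their size follows the added constant: on control food the change was 3.01 with a constant 5 times larger and 7.74 with a constant of 1.

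Eig71Ed, another late gene, had 7.13, 5.24 and 8.22 in mid-L3 larvae on control food and 38.0, 480 and 356 in wandering larvae, so that control array 1 lay far below the rest of its group. The change was 3.36 (SE 0.67, adjusted p = 5.2e-04). It was 1.95 with a constant 5 times larger and 4.57 with a constant of 1. On high sugar food Eig71Ed went from 10.8, 9.15 and 15.6 to 43.1, 49.7 and 222, a change of 1.89 (SE 0.67, adjusted p = 0.0218). That call was lost without wandering high sugar array 3 (adjusted p = 0.11), mid-L3 high sugar array 1 (0.0519) or array 2 (0.0526), with a robust variance prior (0.0577) and with a constant 5 times larger (0.0824), in a range of 7.7e-04 to 0.11. The other Eig71E stage calls held under each alternative that could be computed.

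No Eig71E probe set passed for diet in limma, where 1 of the 4 had an unadjusted p under 0.05 in wandering and 0 in mid-L3 larvae. Of all genes, 6.37% passed in wandering and 14.0% in mid-L3 larvae, and of singly fitted probe sets 4.38% and 10.6%. In wandering larvae 2.80% of genes and 1.86% of probe sets were called lower on high sugar food. In wandering larvae Eig71Ea gave -1.18 (SE 0.44, adjusted p = 0.133), Eig71Ed -1.17 (SE 0.67, adjusted p = 0.384) and Eig71Ef -0.75 (SE 0.50, adjusted p = 0.459). For each of these 3 genes, control arrays 2 and 3 lay above all 3 high sugar arrays and control array 1 did not. Without control array 1 all 3 passed as lower on high sugar food, Eig71Ea by -1.79 (adjusted p = 0.00613), Eig71Ed by -2.16 (adjusted p = 0.0153) and Eig71Ef by -1.57 (adjusted p = 0.00208). They passed with array weights too (adjusted p = 0.00567, 0.0135 and 0.0149). Over all alternatives the ranges were 0.00567 to 0.413 for Eig71Ea, 0.0135 to 0.737 for Eig71Ed and 0.00208 to 0.898 for Eig71Ef.

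Without that array the diet effects of Eig71Ed and Eig71Ef were also called lower in wandering than in mid-L3 larvae, by -2.47 (adjusted p = 0.0294) and -1.57 (adjusted p = 0.0116), as were 3.97% of genes and 2.81% of probe sets with all arrays. With it the differences were -1.47 (SE 0.95, adjusted p = 0.445) and -0.75 (SE 0.71, adjusted p = 0.629). Eig71Ee gave 0.12 (SE 0.55, adjusted p = 0.929) in wandering larvae, at the top of its range. The mid-L3 values of Eig71Ea, Eig71Ed and Eig71Ef lay at or under 15.6 on every array, so a diet change at that stage could hardly be measured.

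**Figure D3:**
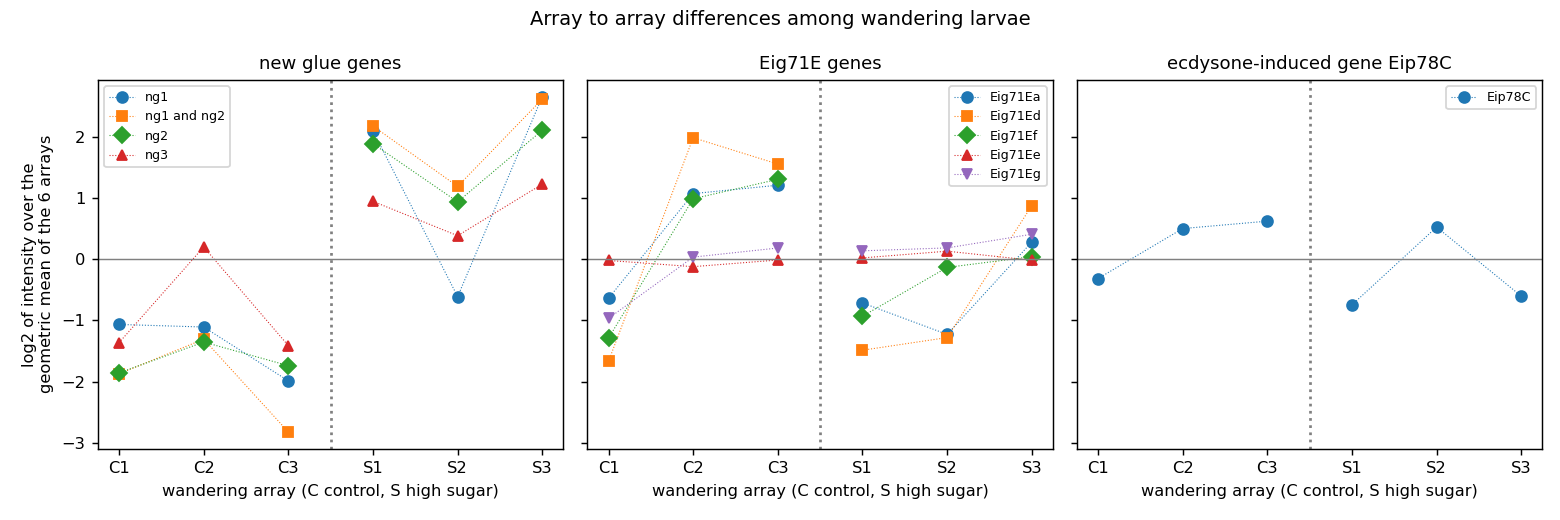
Log2 of the intensity in each of the 6 wandering arrays over the geometric mean of those arrays, for the new glue genes, the Eig71E genes with their neighbour Eig71Eg, and Eip78C. C1 to C3 are control arrays and S1 to S3 high sugar arrays, and dotted lines only join the points of a gene. The low points of Eig71Ea, Eig71Ed and Eig71Ef in C1 and of the new glue genes in S2 are visible.

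Some members shared the wandering array in which they were lowest. Control array 1 was the lowest of its group for Eig71Ea, Eig71Ed and Eig71Ef, and by little for ng2, at 42.9 against 60.9 and 46.6. It was the highest for ng1, at 21.2 against 20.6 and 11.2. It was also lowest for Eip78C, a nuclear receptor gene that ecdysone induces, at 423 against 746 and 811. Other listed genes of the ecdysone response were split. Hr3 was lowest there too, at 34.4 against 59.8 and 72.8. So were the brightest probe sets of Hr4, at 198 against 333 and 344, and of Eip93F. Dimmer probe sets of Hr4 and Eip93F were not lowest there. EcR, the ecdysone receptor gene, was highest in the same array, at 1147 against 745 and 916. The br probe set used was also highest there, at 3764 against 3697 and 3670. EcR, Hr3, Hr4 and Eip93F were named after their values were seen. High sugar array 2 was the lowest of its group for all 4 new glue probe sets and for Eig71Ea, and the highest for Eip78C, at 758 against 314 and 346. It was also the highest for Hr3, br and the brightest Hr4 and Eip93F probe sets, and the lowest for EcR. Among these arrays no single order held for every member, since Eig71Ed and Eig71Ef were lowest in high sugar array 1. What part any difference between these arrays has in the diet values was not tested.

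In mid-L3 larvae 1 array stood apart for Eig71Ee. High sugar array 2 had 1303, against 153 and 139 in the other 2 and 128 to 150 on control food. The same array had the highest mid-L3 values of the glue genes Sgs3 and Sgs7, at 384 and 2603, where the other 5 arrays had 2.18 to 42.3 and 66.4 to 617. Not every glue gene stood out there. Sgs4 had 31.3 in that array and 39.8 in high sugar array 3, and Sgs5bis had 166 against 151 in control array 2. High sugar array 2 was also the lowest of its group for all 4 new glue probe sets. Eig71Ee gave a diet value of 1.04 (SE 0.55, adjusted p = 0.245) with this array and 0.09 (adjusted p = 0.615) without it. The part of that array in the other values was not tested beyond leaving it out.

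**Figure D4:**
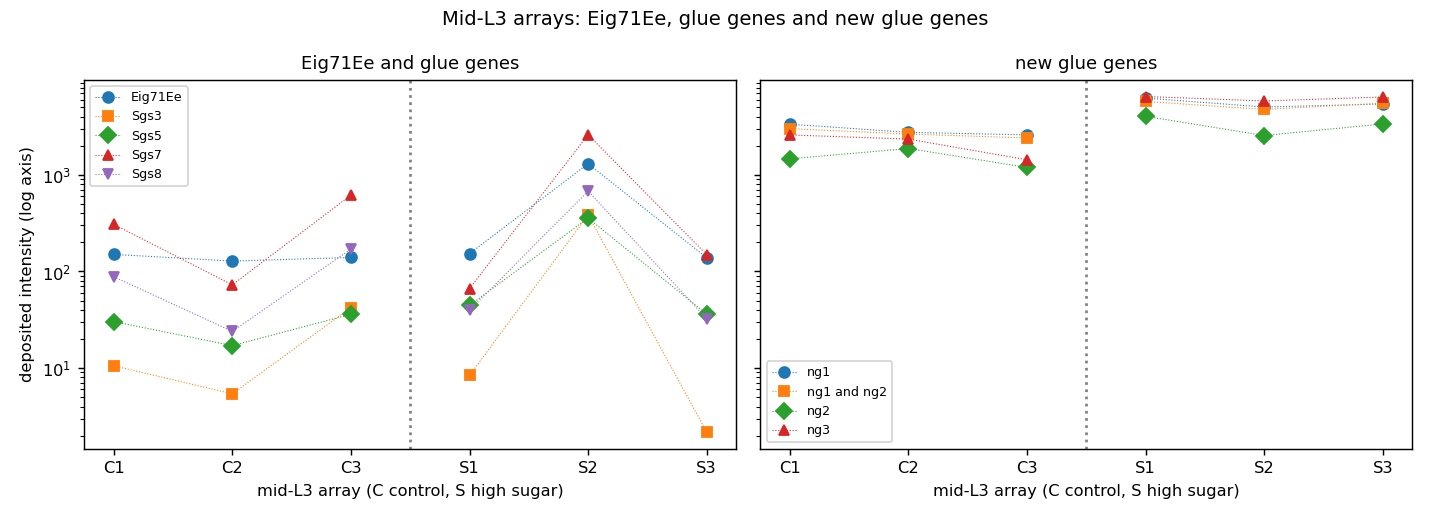
Deposited intensity (log axis) in each of the 6 mid-L3 arrays for Eig71Ee with 4 glue genes, and for the new glue genes. C1 to C3 are control arrays and S1 to S3 high sugar arrays, and dotted lines only join the points of a gene. Eig71Ee, at 1303 in S2, and the 4 glue genes drawn stand out in that array, and the new glue genes are at their lowest of the high sugar group there.

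Neighbours along the chromosomes did not all follow the members. On the X chromosome the annotation places the genes in the order ng2, ng3, ng1, ng4 and Pig1. Pig1, a salivary gland gene named for its activity before the glue period, was lower in wandering larvae, by -1.63 (SE 0.20, adjusted p = 6.4e-06) on control food and -1.24 (SE 0.20, adjusted p = 8.3e-05) on high sugar food. Its level was 2751 ± 78.8 in mid-L3 and 867 ± 159 in wandering larvae on control food (SD, n = 3). For diet, Pig1 gave 0.69 (SE 0.20, adjusted p = 0.0609) in wandering and 0.30 (SE 0.20, adjusted p = 0.367) in mid-L3 larvae. ng4 had 2.86 to 18.6 on single arrays and was not tested.

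In the 71E cluster, Eig71Eg follows Eig71Ef and rose with it. It went from 4.43 ± 1.41 to 301 ± 113 on control food and from 4.07 ± 0.682 to 402 ± 41.3 on high sugar food (SD, n = 3), changes of 4.01 (SE 0.23, adjusted p = 3.7e-09) and 4.47 (SE 0.23, adjusted p = 1.5e-09). In wandering larvae its diet value was 0.44 (SE 0.23, adjusted p = 0.319). The next 4 genes, Eig71Eh, Eig71Ei, Eig71Ej and Eig71Ek, had group means of 5.35 to 27.2 in all 4 groups and were not tested. Of these, Eig71Ei had 13.8 to 38.3 in mid-L3 and 3.33 to 9.12 in wandering larvae, with all mid-L3 arrays above all wandering arrays. CG43084, which lies between Eig71Eb and Eig71Ec, gave 0.24 (SE 0.66, adjusted p = 0.744) on control food and 0.48 (SE 0.66, adjusted p = 0.518) on high sugar food. It was named for its place, not by the rule for naming genes.

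**Figure D5:**
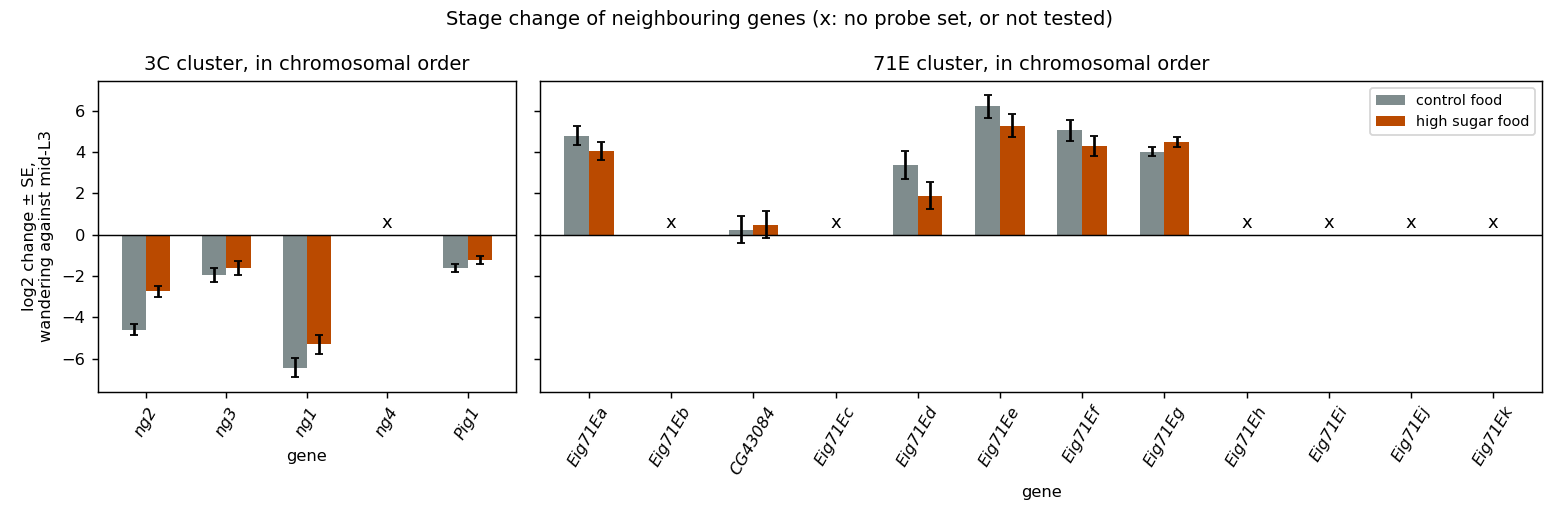
Fitted log2 change of wandering against mid-L3 larvae (bars, with SE) for neighbouring genes of the 3C and 71E clusters in the order of the annotation, on control and high sugar food. Crosses mark genes with no listed probe set or not tested. The new glue genes and Pig1 fell, and Eig71Ea and Eig71Ed to Eig71Eg rose.

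The 7 Sgs glue genes rose in wandering larvae and had no diet call. All 7 were higher on both foods, where 39.4% and 38.2% of genes were, with a median change of 7.53 on control food and 7.09 on high sugar food, where the median of all genes was -0.01 and -0.05. Several of them, Sgs1, Sgs3 and Sgs4 included, were dim in mid-L3 larvae and reached the level tested through the wandering arrays. The count is therefore only a description. Sgs3 went from 10.6, 5.41 and 42.3 to 11394 ± 265 (SD, n = 3) on control food, a change of 8.65 (SE 0.93, adjusted p = 1.9e-06), and Sgs4 gave 8.39 (SE 0.17, adjusted p = 1.3e-12), Sgs1 7.53, Sgs5 7.68, Sgs8 6.82, Sgs5bis 6.19 and Sgs7 5.31. For diet, limma called 0 of 7 in wandering and 0 of 7 in mid-L3 larvae, with 0 and 2 at an unadjusted p under 0.05. Of all genes, 6.37% and 14.0% were called. Sgs4, the glue gene near the new glue genes, gave -0.01 (SE 0.17, adjusted p = 0.978) in wandering larvae, and the median of the 7 was 0.01 there and 0.35 in mid-L3 larvae. In wandering larvae Sgs3 stood at 67.0% to 73.9% and Sgs7 at 67.6% to 73.1% of the highest intensity on any array, and how far such signals could still show a diet difference was not tested.

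Of 20 listed ecdysone response factors and salivary gland regulators, 12 were tested, of which 5 rose and 6 fell between the stages on control food, and 5 rose and 7 fell on high sugar food. Of all genes, 39.4% rose and 39.8% fell on control food, and 38.2% rose and 40.9% fell on high sugar food. The transcription factor gene br, which relays the ecdysone signal to the glue and 71E genes, rose by 2.87 (SE 0.14, adjusted p = 7.9e-10) and Eip78C by 4.88 (SE 0.35, adjusted p = 3.4e-08) on control food. The brightest br probe set was used, and the dimmest stood at 51.8 ± 2.24 and 51.8 ± 11.9 (SD, n = 3) in the 2 stages. PH4alphaSG2, which encodes a prolyl hydroxylase of the salivary gland, changed by -3.15 (SE 0.21, adjusted p = 1.6e-08). None of the 12 passed for diet in wandering larvae in limma, where PH4alphaSG2 gave 0.53 (adjusted p = 0.15), its relative PH4alphaSG1 0.40 (adjusted p = 0.19) and Eip78C -0.58 (adjusted p = 0.349), with 2 of the 12, both PH4alphaSG genes, at an unadjusted p under 0.05. Of all genes, 6.37% passed for diet in wandering larvae. In mid-L3 larvae 1 of 12, the nuclear receptor gene Hr39, was higher by 0.39 (SE 0.11, adjusted p = 0.0361) with its brightest probe set, and with arrays centred on their medians 0 were higher and 1 was lower. In the reported fit 7.52% of all genes were called higher in mid-L3 larvae. Hr39 was also the 1 of 12 with a lower diet effect in wandering larvae, by -0.56 (SE 0.16, adjusted p = 0.0497), as had 3.97% of all genes. With either other scaling 0 of the 12 passed. Another Hr39 probe set went from 238 ± 11.9 to 220 ± 22.9 (SD, n = 3) in mid-L3 larvae. Hr39 was named after its values were seen.

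By pattern over the 12 arrays, the genes most like each of the 5 members in the gene table (not Eig71Ed or Eig71Ef) were found from the root mean square difference of their centred log2 values. For ng1 these were CG31233 (0.63), CG9757 (0.73) and lambdaTry (0.74), against an SD of 3.09 for ng1 itself. For ng2 they were vanin-like (0.45), Gpdh1 (0.46) and GstE9 (0.54), with an SD of 2.17, and for ng3 CG32195 (0.33), p38c (0.42) and CG10182 (0.44), with 1.31. Eig71Ea was most like Muc68E (0.44), Drsl2 (0.55) and bam (0.59), with 2.31, and Eig71Ee like Cpr78E (0.57), Sgs5 (0.66) and Est-P (0.67), with 2.97. In the values as deposited, bam and Est-P were not among the 3 likest. The difference between the stages makes up most of each pattern, and these arrays are not independent points.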

How the data were processed

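The authors deposited a linear intensity for every probe set on each array. Per the labels, total RNA (2 ug) was converted to biotinylated cRNA with the Affymetrix protocol. How probe signals were summarized and scaled is not given in the sources used here. Of 18952 probe sets, 183 controls were left out, 13647 listed 1 gene, 402 several and 4720 none. Symbols were updated through Entrez identifiers for 13544 of the 13647.

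A constant of 12.7 (the 20th percentile over the table) was added before taking log2, which understates changes of dim genes. Arrays were quantile normalized, since the deposited values were not on a common scale: the largest trimmed mean of an array was 1.10 times the smallest, and array medians spanned 0.35 on the log2 scale. The brightest probe set stood for a gene, and a filter on the mean at the 30th percentile kept 8387 genes. limma 3.58.1 in R 4.3.3 fitted a mean per group to all 12 arrays (residual df 8, prior df 4.41, intensity trend). P values are two-sided, adjusted by Benjamini-Hochberg over all genes, with a threshold of 0.05. The probe set of ng1 and ng2 together, and Eig71Ed, Eig71Ef and Eig71Eg, which were under the filter, come from the same fit of 13138 probe sets singly. The fit was tested on simulated data. Figures were drawn with matplotlib 3.10.9.

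All members were named, whatever their values, with every measured gene of the glue and locus lists, the 3 regulators with the smallest adjusted p in 2 comparisons, and the 3 genes most like each of the 5 members in the gene table. The members and lists were chosen with earlier results of these data known. Gene order came from the RefSeq Release 6 annotation; the files name no genome build, so no coordinates are given.

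Replicate numbers were checked for pairing on deviations from the group means. For control food, the 3 pairs sharing a number across the stages had correlations of 0.122 to 0.178, and pairs with different numbers of -0.181 to 0.0728. No other 2 groups had every same-numbered pair over 0.1. Differently numbered arrays of the wandering groups had -0.298 to 0.389, so values of this size also arose without a shared number. The reported fit therefore used no pairs and no block, and control numbers served as possible pairs only in alternatives. The labels do not say what a number marks. Alternatives were other scalings, constants, filters, probe set summaries, variance models, array weights, the compared arrays alone, the replicate block, each array left out, and both control arrays numbered 1 left out.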

Additional observations from a re-analysis of the deposited data

Results flagged for a closer look

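The diet effect of ng2 was larger in wandering than in mid-L3 larvae, with a difference of 1.86 on the log2 scale (SE 0.37, adjusted p = 0.00787). The same difference for the probe set shared by ng1 and ng2 was 2.52 (SE 0.42, adjusted p = 0.00313). Over the alternatives these sizes were 1.16 to 2.21 for ng2 and 1.61 to 2.92 for the shared probe set, lowest with a constant 5 times larger. Both were picked out because the test of the difference between the stages passed in limma. For both, all 3 high sugar arrays lay above all 3 control arrays in each stage. That was so in 11.8% of genes in wandering and in 21.5% in mid-L3 larvae. The stages also differ in exposure, from hatching in wandering larvae and 12 h in mid-L3 larvae, so stage and length of exposure cannot be told apart.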

How the results depend on the processing

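Of 206 single-gene values recomputed per comparison of 2 groups, the call and direction were the same in 206 between the stages on control food, 201 on high sugar food, 187 for diet in wandering and 190 for diet in mid-L3 larvae, and none of the members' values that passed changed sign. With each array left out in turn, the members called higher for diet numbered 3 to 4 in wandering larvae (4 with all arrays) and 0 to 4 in mid-L3 larvae (2 with all arrays), the low of 0 coming without mid-L3 control array 3. The members called lower for diet numbered 0 to 3 in wandering larvae, and 0 to 2 had a lower effect in wandering than in mid-L3 larvae, the highs without wandering control array 1. Fitting only the arrays compared left 2 called higher among wandering larvae, and 4 at mid-L3. Adding the replicate number as a block to that fit gave the same counts, 2 and 4, and the replicate block over all 12 arrays changed no member's call. Array weights gave 3 lower in wandering and 4 higher in mid-L3 larvae. Without both control arrays numbered 1 there were 3 lower in wandering larvae, 1 higher in mid-L3 larvae and 1 with a lower diet effect in wandering larvae. A filter at the 50th percentile left 5 of the 8 probe sets to test, so that 1 in place of 4 was called higher between the stages on either food. The cause of the other changes was not tested. Over all alternatives the genes called for diet, of all tested, ranged from 172 to 2381 in wandering larvae (534 in the reported fit), from 715 to 2525 in mid-L3 larvae (1178) and from 432 to 2206 for the difference (651). In mid-L3 larvae the reported fit called 631 higher and 547 lower, and centring the arrays on their medians 494 and 775. Between the stages on high sugar food it called 3207 higher and 3431 lower, against 3824 and 2686 in the values as deposited. Between the stages on control food the median change of all genes was -0.01, 0.18 in the values as deposited and -0.12 with centred arrays, and every member kept its direction. Dim values set the limit for Eig71Ea, Eig71Ed and Eig71Ef in mid-L3 larvae. P values of the reported fit rest on the spread between the 3 arrays of a group, pooled over all 4 groups and moderated by limma.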
